A study of Mus musculus with 4 samples.

Results

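Central HNKO 1 is a cluster of pericentral hepatocyte nuclei from the liver of hepatocyte-specific Nampt knockout (HNKO) mice, and it held 94 of the 5193 nuclei in the deposited table. Its members were taken by the cluster name that the authors had given each nucleus, and no value was used here to choose them. 93 of the 94 nuclei came from HNKO mouse 1 and 1 from HNKO mouse 2, so that the cluster was in effect the pericentral compartment of 1 liver. A cluster that is set by its own expression profile cannot be tested for that profile, and 1 mouse gives no replicate. All differences are therefore described by their size and their counting error, and no p-value is given.

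Single-nucleus RNA-Seq had been performed on frozen liver of 3 HNKO and 3 WT mice, with 4250 nuclei sorted per mouse and sequenced as 2 pools, in which the mouse of origin was read from a hashtag antibody. The deposited table holds 629 to 1063 nuclei per mouse. HNKO mice (C57BL6/BomTac Alb-Cre Nampt cKO) carry floxed Nampt alleles and a Cre transgene that the albumin promoter drives in hepatocytes, whereas WT mice (C57BL6/BomTac Nampt cKO) are littermates that carry the floxed alleles without Cre. All were female, 8 to 12 weeks old at the start, and had been fed a purified control diet (PD) for 6 weeks in a cohort in which some mice received nicotinamide riboside (NR) in the drinking water. The labels do not say which of these 6 mice, if any, had NR, so that genotype, mouse and NR cannot be told apart here. Mice are numbered by the order of their hashtag names within a genotype.

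Nampt makes nicotinamide mononucleotide from nicotinamide, the salvage route to NAD+. Hepatocytes divide their work along the sinusoid: those around the portal vein run urea synthesis, amino acid breakdown and gluconeogenesis, and those around the central vein run xenobiotic metabolism by cytochromes P450. Wnt signals from the endothelium of the central vein keep the last rows of hepatocytes in a pericentral state, in which glutamine synthetase removes the ammonia that urea synthesis left over.

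The nuclei of the cluster made up 8.75% of all 1063 nuclei of HNKO mouse 1 (95% exact binomial interval 7.12% to 10.6%, counting error only) and 11.5% of its 812 hepatocyte nuclei. No nucleus of the cluster was found in WT mice 1, 2 and 3 or in HNKO mouse 3, which, taking 3 counts as the limit that a count of 0 allows, leaves room for shares of up to 0.477%, 0.386%, 0.414% and 0.286% of all nuclei. The pericentral compartment of the other mice was filled by clusters of other names. Central 1 held 39, 49 and 43 nuclei of the 3 WT mice and 80 of HNKO mouse 2, and Central HNKO 2 held 78 nuclei of HNKO mouse 3. Counting every cluster with Central in its name, the pericentral share of hepatocyte nuclei was 12.3% in HNKO mouse 1 (10.1% to 14.8%), 6.94%, 6.87% and 6.54% in the WT mice, 9.89% in HNKO mouse 2 and 9.21% in HNKO mouse 3. The rest of the hepatocytes of HNKO mouse 1 sat nearly all in the cluster HNKO 1, with 658 nuclei from this mouse, and that cluster served as the same-liver comparison.

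The 93 nuclei held 894793 unique molecular identifiers (UMIs), with a median of 6016 and a range of 1890 to 44204 per nucleus, beside a median of 6113 in HNKO 1 and 2574 to 4295 in Central 1 of the 4 mice. Unspliced RNA made up a median of 78.0% of UMIs in Central HNKO 1, 78.8% in HNKO 1 and 70.3% to 73.3% in Central 1. Depth and unspliced share were thus close to those of HNKO 1 and above those of Central 1, and their part in the differences from Central 1 was not tested. Levels below are counts of a gene per 1e6 UMIs (CPM), summed over the nuclei of a cluster in 1 mouse.

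The label was set beside markers. The 20 genes with the highest ratio to the other nuclei of the mouse began with Slc22a3, Slc1a2, Sgcz, Glul and Kif26b. They held Lgr5, Cyp2c37 and Lhpp, a pericentral hepatocyte profile, while Scara5 was not among them. The cluster had been drawn from these values, so that this ranking describes the label and is no independent check of it. Hepatocyte genes such as Alb (4511 CPM) and Apoa1 (483 CPM) were near their levels in HNKO 1 (4576 and 522 CPM). Summed markers of other cell types were low beside those types themselves. The summed level of 15 cholangiocyte and ductular genes was 383 CPM, 2.77% of that in the cholangiocyte nuclei of the same mouse, against 277 to 383 CPM in Central 1, with Krt19, Epcam, Sox9 and Cftr at 0. The sums for 14 endothelial, 14 stellate, 12 Kupffer and 16 CD45+ genes reached 1.98%, 2.63%, 0.222% and 0.921% of the level in the cell type itself, with Kdr, Lyve1, Col1a1, Pdgfrb, Clec4f and Vsig4 at 0. Other list members were present, with 297 UMIs of Pkhd1, 263 of Reln and 185 of Dpp4. The stellate sum of 421 CPM was above that of Central 1 (166 to 320 CPM), whereas the endothelial, Kupffer and CD45+ sums were not. Reln was over 2-fold higher than the Central 1 mean and above every mouse.

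Nampt itself did not check the genotype. Its level was 50.3 CPM in Central HNKO 1 and 90.02 CPM in HNKO 1, against 42.4, 100.5 and 62.7 CPM in Central 1 of the WT mice and 98.9 CPM in HNKO mouse 2, so that the cluster lay inside the WT range. A Nampt UMI was found in 28.0% of the 93 nuclei and in 25.4% of the 71 endothelial nuclei of the same liver. Endothelial cells are a type in which the albumin promoter is not active. The cluster was deeper, with a median of 5967 against 3224 UMIs after rounding to whole UMIs. With each nucleus thinned to 1000 UMIs, the shares were 3.23% (0.670% to 9.14%) and 8.45% (3.16% to 17.5%). These shares rest on 3 and 6 nuclei, their intervals overlap, and the difference was not tested. UMIs were counted over the whole gene with introns, and a deletion of part of the gene need not lower such a count.

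The markers of the cluster include 2 membrane transporters whose promoters were examined next to that of Glul, because Slc22a3, Slc1a2 and Glul are among the 4 leading genes of the cluster. The sequences are the 250 bases before the annotated transcription start in RefSeq (build GRCm38.p6), written 5′ to 3′ on the strand of the gene, and capitals mark matches on either strand to CTTTGAT or CTTTGTT (TCF/LEF type) or CAAAGTC (part of the HNF4A type). The Slc22a3 window is chr17:12507705-12507954 on the minus strand, the Slc1a2 window chr2:102706188-102706437 on the plus strand and the Glul window chr1:153899679-153899928 on the plus strand.
Slc22a3: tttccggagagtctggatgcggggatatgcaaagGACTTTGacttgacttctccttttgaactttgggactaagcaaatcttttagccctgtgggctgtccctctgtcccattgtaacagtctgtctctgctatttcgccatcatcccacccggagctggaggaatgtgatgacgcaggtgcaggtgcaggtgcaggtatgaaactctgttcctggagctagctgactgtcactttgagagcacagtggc
Slc1a2: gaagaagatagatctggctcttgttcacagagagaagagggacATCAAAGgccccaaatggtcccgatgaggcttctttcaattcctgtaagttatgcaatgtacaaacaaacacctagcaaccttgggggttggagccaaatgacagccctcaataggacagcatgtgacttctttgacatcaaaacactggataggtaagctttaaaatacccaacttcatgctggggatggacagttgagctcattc
Glul: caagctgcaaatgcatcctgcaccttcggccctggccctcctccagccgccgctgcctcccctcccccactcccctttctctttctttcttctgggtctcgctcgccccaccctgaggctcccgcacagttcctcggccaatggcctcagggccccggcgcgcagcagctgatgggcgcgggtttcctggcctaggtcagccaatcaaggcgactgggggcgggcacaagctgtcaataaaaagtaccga
The Slc22a3 window held a match to CAAAGTC, the Slc1a2 window a match to CTTTGAT, and the Glul window none of the 3 motifs. The Slc1a2 window lies inside the gene, at a start downstream of the longest transcript. Over all 32851 windows of 300 bases, of which the last 50 lie after the start, the share with a match was 3.73% for CTTTGAT, 5.85% for CTTTGTT and 4.44% for CAAAGTC. Of the 27 windows of the pericentral list, which covered 24 of its 37 genes, 4 held CTTTGAT, 2 held CTTTGTT and 6 held CAAAGTC. A match is a run of letters and not a binding site.

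Slc22a3 (chromosome 17, positions 12418960 to 12507704 in GRCm38) encodes an organic cation transporter of the plasma membrane. Its level was 1171 CPM in Central HNKO 1 and 5.10 CPM in HNKO 1, a ratio of 230 (counting interval 158 to 347). In Central 1 it was 146, 571 and 279 CPM in the 3 WT mice and 237 CPM in HNKO mouse 2, and in Central HNKO 2 it was 78.7 CPM. The gene was pericentral in every mouse, and the cluster lay above all 5 of the other pericentral groups. Its level was 3.80-fold that of the Central 1 mean (308 ± 184 CPM, SD, n = 4 mice). The UMIs were unevenly spread over the nuclei. 3 nuclei held 42.7% of the 1048 UMIs, 36 of the 93 nuclei held none, and the level fell to 918 CPM when each nucleus had the same weight.

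Slc1a2 (chromosome 2, positions 102658659 to 102790784) encodes a glutamate transporter that takes up the substrate of glutamine synthetase. It was read at 4428 CPM in Central HNKO 1 and 23.5 CPM in HNKO 1, a ratio of 188 (158 to 226). Central 1 had 3404, 3943 and 4502 CPM in the WT mice and 4434 CPM in HNKO mouse 2. The cluster lay within that range. A Slc1a2 UMI was present in 95.7% of its nuclei (89.4% to 98.8%) and in 90.3% after each nucleus was thinned to 1000 UMIs, against 11.3% and 4.23% of the endothelial nuclei of the mouse (median depth 3224 UMIs, against 5967 in the cluster, after rounding to whole UMIs).

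Lhpp (chromosome 7, positions 132610638 to 132706420), a phosphatase known to act on phosphohistidine, had 1086 CPM in Central HNKO 1 and 131 CPM in HNKO 1, a ratio of 8.29 (7.52 to 9.14). In Central 1 it had 528, 710, 662 and 818 CPM in WT mice 1 to 3 and HNKO mouse 2. The cluster lay above all of them, by 1.60-fold over their mean of 679 ± 120 CPM (SD, n = 4 mice), which is less than 2-fold. A Lhpp UMI was found in 94.6% of the nuclei and in 57.0% after thinning, against 11.3% and 0 of 71 in endothelial nuclei.

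Scara5 (chromosome 14, positions 65666403 to 65764826), a scavenger receptor that binds ferritin, set the cluster apart from the pericentral nuclei of the other livers. It had 156 CPM in Central HNKO 1, 11.6 CPM in WT mouse 1, 0 in WT mouse 2, 3.48 CPM in WT mouse 3, 12.4 CPM in HNKO mouse 2 and 9.26 CPM in Central HNKO 2. The ratio to the Central 1 mean of 6.85 ± 6.08 CPM (SD, n = 4 mice) was 22.8, on 140 UMIs in the cluster and 0 to 5 UMIs in each Central 1 sum. It was also above the WT range outside the zone, with 38.8 CPM in HNKO 1 against 1.44 to 2.11 CPM in the other hepatocytes of WT mice. Scara5 UMIs were found in 35.5% of the nuclei (10.8% after thinning) and in 0 of 71 endothelial nuclei. As with Slc22a3, few nuclei held much of the signal, with 63 of the 140 UMIs in 3 of them.

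**Figure D1:**
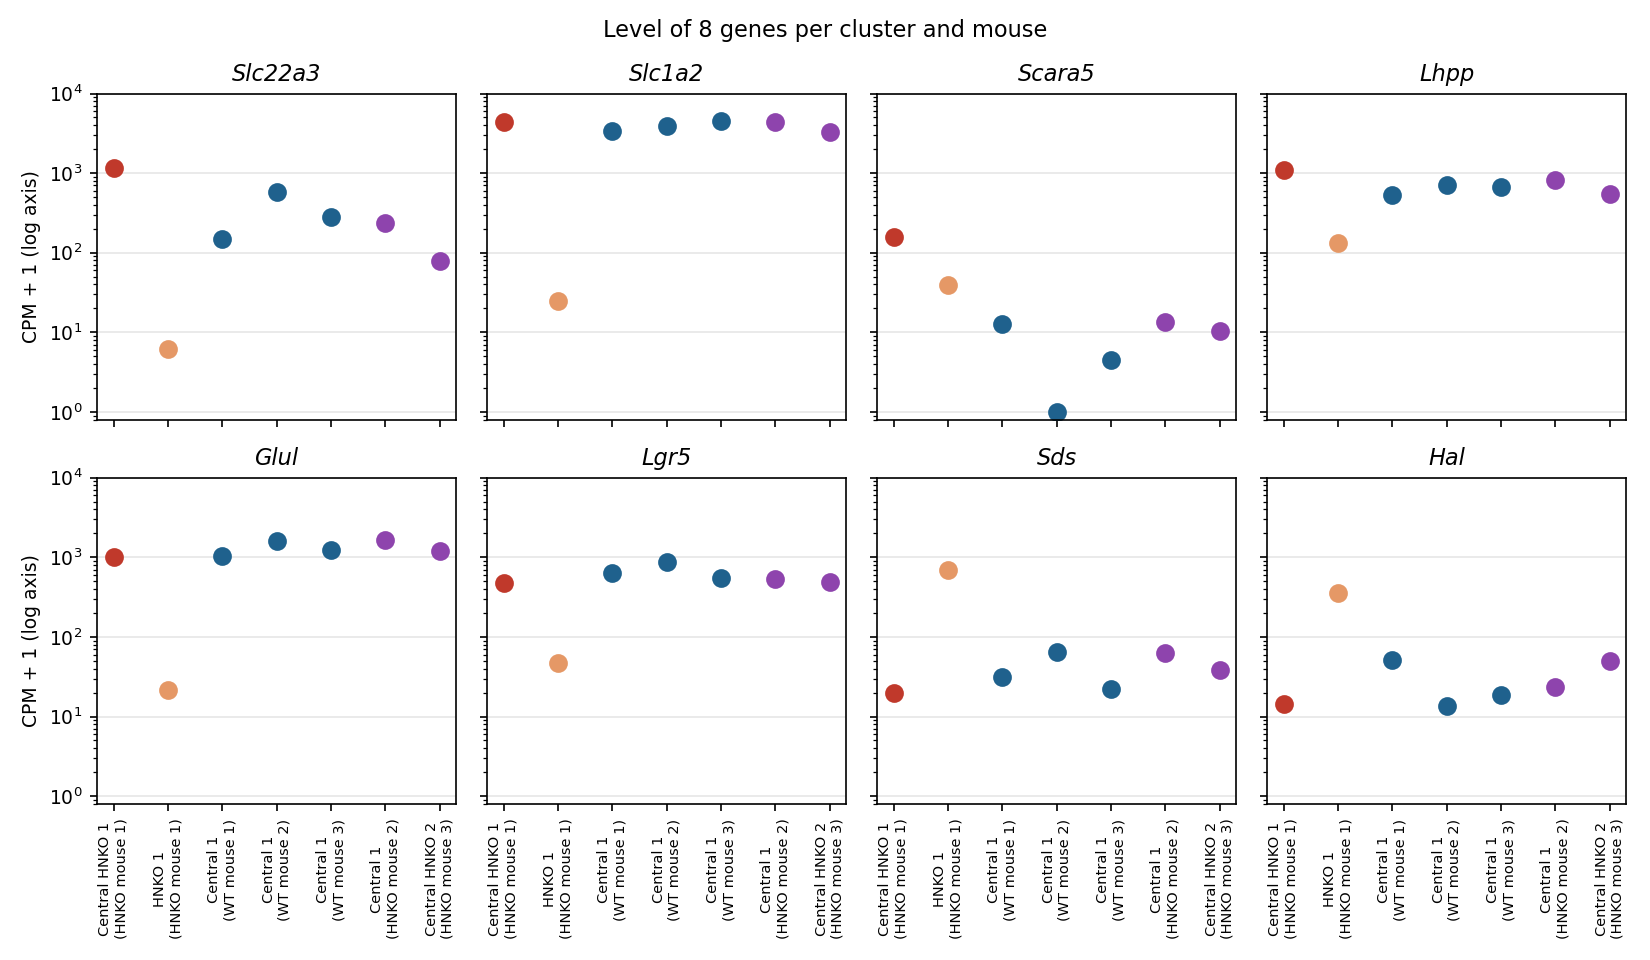
Level of the 4 cluster markers and of 2 further pericentral (Glul, Lgr5) and 2 periportal genes (Sds, Hal) as CPM + 1 on a log axis, with 1 point per cluster and mouse and no error, since each is 1 sum. Slc22a3 and Scara5 are highest in Central HNKO 1 (1171 and 156 CPM), whereas Slc1a2, Glul and Lgr5 lie near Central 1 and far above HNKO 1.

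To see how even the cluster was, markers were paired nucleus by nucleus. Slc1a2 and Lhpp UMIs were found together in 84 of 93 nuclei, and no nucleus lacked both. Slc22a3 and Glul were found together in 50 nuclei, Slc22a3 alone in 7, Glul alone in 23 and neither in 13. Scara5 was seen in 25 of the 57 nuclei with a Slc22a3 UMI and in 8 of the 36 without, in counts that also depend on the depth of each nucleus. When the nuclei were divided by depth into 3 sets of 31, Slc1a2 was 3954, 4297 and 4532 CPM and Glul 1140, 866 and 1026 CPM from the shallowest to the deepest set. Slc22a3 was 946, 754 and 1329 CPM. Each of these genes was found in shallow and in deep nuclei.

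The first comparison asked what distinguishes the pericentral nuclei of this liver from its other hepatocytes. Against HNKO 1 of the same mouse, Central HNKO 1 had higher levels of pericentral transporters, glutamine synthetase, Lgr5 and several P450 genes, and lower levels of periportal enzymes of serine, glycine and histidine breakdown. Of 2890 genes with a mean of at least 50 CPM, 98 were over 2-fold higher (3.39% of the genes measured) and 115 over 2-fold lower (3.98%). With DESeq2 size factors the counts were 147 and 95, so that the balance between directions depends on the scaling. The clusters had been drawn from these genes, and these counts describe how far apart they are.

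Of the pericentral list, 24 of 37 genes were measured, of which 20 were over 2-fold higher, none was over 2-fold lower, and the median log2 ratio was 1.84, beside -0.11 over all genes. This list and the cluster markers share Slc22a3, Slc1a2, Scara5 and Lhpp. Glul had 1004 CPM against 20.8 CPM in HNKO 1, a ratio of 48.3 (39.7 to 59.2). It was found in 78.5% of the nuclei of the cluster, 13.2% of HNKO 1 nuclei and 28.2% of endothelial nuclei. Its level in endothelial nuclei was 164 CPM, above that of HNKO 1. Genes of the Wnt pathway followed: Lgr5, a receptor for R-spondin, had 477 against 45.6 CPM (ratio 10.48, 8.94 to 12.3), and Rnf43 and Znrf3, ligases that remove Wnt receptors from the membrane, had 348 against 114 CPM and 924 against 382 CPM. Of 11 Wnt pathway components measured, Lgr5, Rnf43, Lrp5 and Znrf3 were over 2-fold higher and Tcf7l1 over 2-fold lower. Other receptors did not follow Lgr5 and Lrp5, with Lgr4 at 381 against 348 CPM and Lrp6 at 117 against 231 CPM (1.97-fold lower). The direct Wnt targets Axin2 and Tbx3 were too low to enter, at 4.47 and 5.59 CPM in the cluster.

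Of 30 P450 and conjugation genes, 10 were over 2-fold higher and 3 lower. Cyp2e1, which oxidizes ethanol, had 1294 against 347 CPM (ratio 3.73, 3.46 to 4.01), Cyp2c29 982 against 194 CPM (5.08, 4.64 to 5.56) and Cyp2c37 325 against 29.2 CPM (11.2, 9.17 to 13.6). Cyp2c genes are close copies of each other, and their UMIs can be shared between paralogs. Cyp3a13 was among those lower, with 59.2 against 169 CPM. Cyp7a1, the rate-limiting enzyme of bile acid synthesis, was higher with 544 against 195 CPM, and Ahr, the dioxin receptor, with 1014 against 389 CPM.

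Genes with large ratios outside the list were Kif26b, a kinesin family member (171 against 3.10 CPM, ratio 55.2, 33.4 to 97.2), Sgcz, a sarcoglycan (573 against 20.4 CPM, ratio 28.1, 22.9 to 34.8) and Gna14, a G protein subunit (411 against 16.0 CPM, ratio 25.7, 20.3 to 32.7). Kif26b, Sgcz and Gna14 are not known mainly as liver genes, but each was also far above the other hepatocytes in Central 1 of the WT mice. Sgcz, for example, had 913, 647 and 749 CPM in Central 1 and 10.3 to 16.2 CPM in the other hepatocytes. Serpina6, which encodes corticosteroid-binding globulin, had 97.2 against 14.4 CPM.

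**Figure D2:**
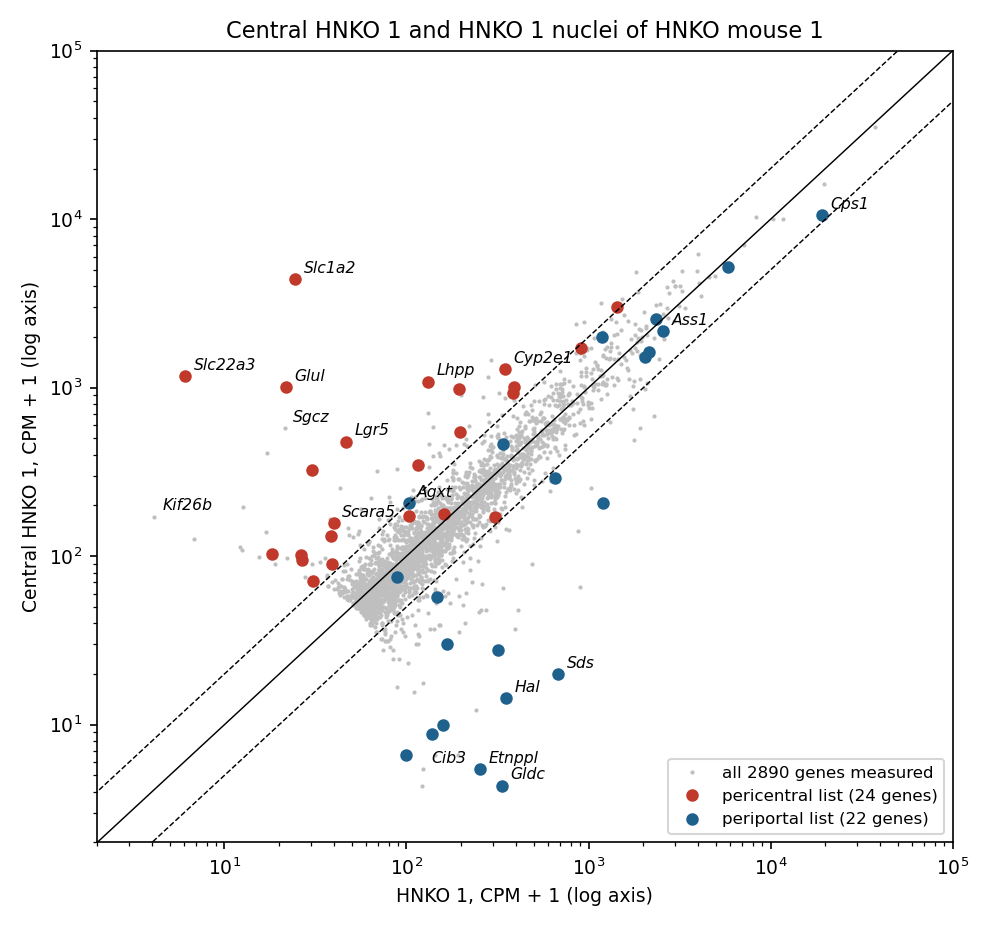
Level of each of the 2890 genes measured in Central HNKO 1 against HNKO 1 of HNKO mouse 1, as CPM + 1 on log axes, with the line of equality (solid) and 2-fold lines (dashed). Pericentral genes (red) lie above the upper line in 20 of 24 cases, and periportal genes (blue) split into 12 below the lower line and a group of abundant genes such as Ass1 and Cps1 between the lines.

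Of the periportal list, 22 of 30 genes were measured, 12 were over 2-fold lower in Central HNKO 1 and 1 was higher, with a median log2 ratio of -1.28. The lowest were enzymes of amino acid breakdown. Gldc, of the glycine cleavage system, had 3.35 against 332 CPM (lower by 99.0-fold, interval 33.8 to 480 on 3 UMIs in the cluster). Sds, serine dehydratase, was lower by 35.9-fold (22.4 to 61.7, on 17 UMIs in the cluster against 682 CPM in HNKO 1), and Hal, histidine ammonia lyase, had 13.4 against 353 CPM (26.3-fold, 15.0 to 51.1). Etnppl, Gls2, Hsd17b6 and Cyp2f2 were lower by 56.5-, 17.6-, 17.6- and 17.7-fold. Sds was detected in 17.2% of the nuclei of the cluster and 16.9% of endothelial nuclei of the liver, and Hal in 12.9% and 11.3%. Gldc was detected in 3.23% and 7.04%, and Etnppl in 4.30% and 12.7%. The cluster was deeper, with a median of 5967 against 3224 UMIs after rounding to whole UMIs. It held 17, 12, 3 and 4 UMIs of Sds, Hal, Gldc and Etnppl among 894793. The endothelial nuclei held 56, 27, 14 and 40 among 317339. The level of each gene was thus lower in the cluster than in endothelial nuclei. How much of these UMIs was background was not tested.

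The other 9 periportal genes stayed within 2-fold, among them abundant ones. Cps1, the first enzyme of urea synthesis, had 10557 CPM in the cluster and 19224 CPM in HNKO 1 (lower by 1.82-fold, 1.78 to 1.86). Ass1, argininosuccinate synthase, had 2173 against 2567 CPM, and Pck1, of gluconeogenesis, 2566 against 2356 CPM. Arg1, which releases urea, was lower by 5.85-fold (205 against 1196 CPM), and Asl by over 2-fold (289 against 651 CPM). Genes of the urea cycle thus differed in how far they were lower between the zones of this liver. Agxt, alanine-glyoxylate aminotransferase, was the exception that was higher, with 205 against 102 CPM (ratio 2.01, 1.69 to 2.38), an interval that reaches below 2.

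Among genes outside the periportal list, Jazf1, a zinc finger cofactor, and Sfxn1, a mitochondrial serine transporter, were lower by 36.0- and 34.2-fold (3.35 against 121 CPM and 5.59 against 191 CPM). Cib3, Chrm3 and Nrg1 formed another pattern. Cib3, a calcium-binding protein, had 4.47 CPM in Central HNKO 1 and 123 CPM in HNKO 1 but 3.13 to 5.52 CPM in the other hepatocytes of WT mice. Chrm3, a muscarinic receptor, had 5.59 and 143 CPM against 12.3 to 41.4 CPM, and Nrg1, a ligand of ErbB receptors, had 11.2 and 239 CPM against 19.3 to 22.8 CPM. These genes were above the WT level in the non-pericentral hepatocytes of HNKO mouse 1 and near the WT Central 1 level in its pericentral nuclei, where Nrg1 was 30.8, 6.28 and 17.4 CPM. Cib3 and Nrg1 had been singled out earlier in these nuclei, so that this is no independent evidence.

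Of 19 genes of fatty acid synthesis and storage, Acly (46.9 against 411 CPM), Acaca (576 against 1919 CPM), Fasn (55.9 against 122 CPM) and Srebf1 were over 2-fold lower in the cluster than in HNKO 1, Fads2 and Pparg were over 2-fold higher, and 13 stayed within 2-fold. The median of -0.18 was near that of all genes (-0.11), and with DESeq2 size factors 3 were higher and 3 lower. None of 10 NAD synthesis or 7 NAD consumption genes measured passed 2-fold in either direction. No gene of the hepatocyte identity list did so among 16 measured.

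The second comparison asked what sets the pericentral nuclei of this HNKO liver apart from Central 1, which came from 3 WT mice and HNKO mouse 2. Here mouse, cluster and genotype cannot be told apart, and the presence of HNKO mouse 2 in Central 1 means that it is not a comparison of genotypes. Of 2882 genes measured, 105 were over 2-fold higher than the Central 1 mean (3.64%) and 140 over 2-fold lower (4.86%), and 104 (3.61%) and 127 (4.41%) of them also lay beyond every 1 of the 4 mice. Scaling mattered more than in the first comparison. With edgeR's TMM factors the counts beyond every mouse became 245 higher and 53 lower, and with DESeq2 size factors 169 and 81, with the median of all genes moving from -0.07 to 0.24 and 0.09 (log2). Whether a gene near 2-fold was called therefore depended on the scaling. The genes named next kept their direction with both scalings.

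The genes furthest above included Scara5, Ntrk2, Nt5e, Lnx2, Abtb2, Mid1, Elovl5, C9orf72, Arhgap18, Pdk4 and Slc22a3. Central HNKO 2 of HNKO mouse 3 also lay above all 4 Central 1 mice for Ntrk2, Abtb2, Arhgap18 and, only just, Lnx2. For the other genes in this row Central HNKO 2 did not. Nt5e, which makes adenosine at the cell surface, had 97.2 CPM against 15.4, 12.6, 13.9 and 24.7 CPM in WT mice 1 to 3 and HNKO mouse 2 (5.84-fold). Elovl5, an elongase of polyunsaturated fatty acids, had 2541 CPM against 547, 1199, 258 and 388 CPM (4.25-fold). Mid1, a ubiquitin ligase, had 460 CPM against 158, 107, 69.6 and 79.1 CPM (4.46-fold). Pdk4, which restrains pyruvate oxidation, had 88.3 CPM against 27.0, 37.7, 0 and 24.7 CPM. In each case the cluster lay above all 4 mice with no overlap.

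Most of these genes were also higher outside the pericentral zone. In HNKO 1, 10 of these 11 were above the other hepatocytes of all 3 WT mice as well, Elovl5 being within their range (1324 CPM against 636 to 1500 CPM). The share of all genes that lie so was not counted, so that this count has no background. Abtb2 had 335 CPM in HNKO 1 against 62.0 to 165 CPM, and Mid1 131 CPM against 11.8 to 28.5 CPM. Slc22a3 rested on 5.10 against 2.11 to 3.37 CPM and was thus near 0 outside the zone. Ntrk2, the receptor for brain-derived neurotrophic factor, had 89.4 CPM in Central HNKO 1 and 490 CPM in HNKO 1. Its level in the cluster was 6.05-fold that of Central 1 (6.28 to 23.1 CPM) but below the 126 CPM of endothelial nuclei of the same liver, and the part of free RNA in it was not tested. Scara5 and Nt5e were at 0 in those endothelial nuclei, and Elovl5 at 170 CPM.

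**Figure D3:**
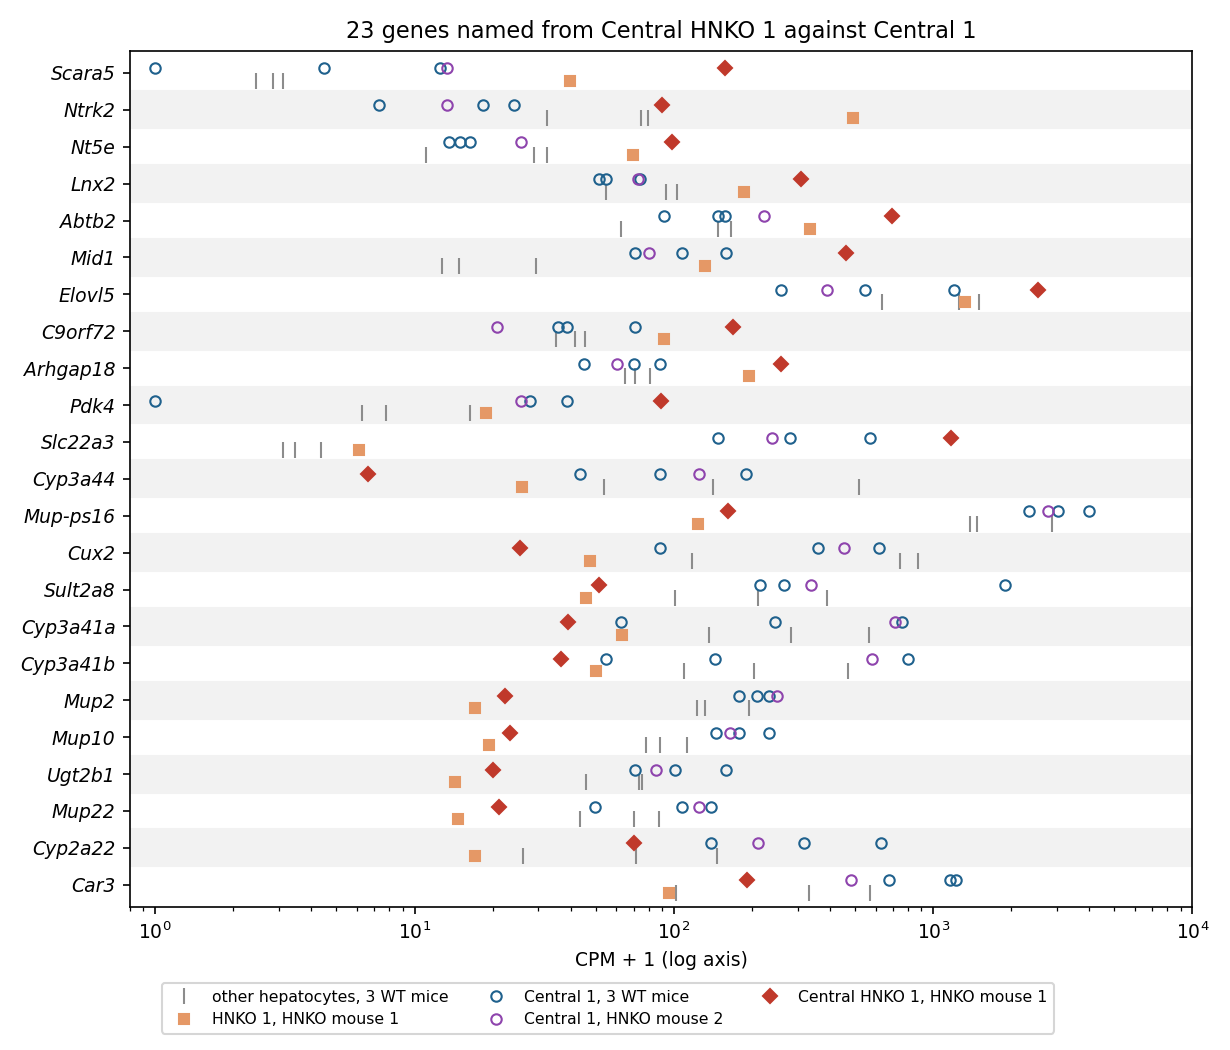
The 11 genes named as furthest above and the 12 furthest below Central 1, as CPM + 1 on a log axis, with 1 point per cluster and mouse (vertical ticks are the other hepatocytes of the WT mice). Central HNKO 1 (red diamonds) lies outside all 4 Central 1 mice (circles) in each row, by which the rows were chosen. HNKO 1 (squares) lies on the same side of the WT ticks in 22 of the 23 rows, a count without background, since the share of all genes was not counted.

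The 12 genes furthest below included 4 major urinary protein (Mup) genes and pseudogenes, and P450 and sulfotransferase genes. Mup-ps16 had 161 CPM in Central HNKO 1 against 2341, 3987, 3026 and 2781 CPM in WT mice 1 to 3 and HNKO mouse 2 (18.9-fold lower). Cux2, a transcription factor with female-biased expression in mouse liver, had 24.6 CPM against 358, 615, 87.1 and 452 CPM (15.4-fold lower). Cyp3a44 was 19.8-fold lower, on 5 UMIs in the cluster, and Cyp3a41a 11.7-fold lower, on 34 UMIs. The Central 1 mice differed widely for Cyp3a41a, with 16 of 259664 UMIs in WT mouse 1 and 121 of 159250 in WT mouse 2. WT mouse 1 lay nearest the cluster for it. Car3, carbonic anhydrase 3, was 4.63-fold lower (191 against 885 ± 363 CPM, SD, n = 4 mice). Of these 5 genes, Central HNKO 2 of HNKO mouse 3 also lay below all 4 Central 1 mice for Mup-ps16, Cyp3a44 and Car3. For Cux2 and Cyp3a41a it lay within their range. The Mup and Cyp3a41 genes are near-identical copies, and how Alevin divided their UMIs is uncertain for each single gene. For all 12 genes HNKO 1 was below the other hepatocytes of all 3 WT mice too, for example 122 against 1384 to 2883 CPM for Mup-ps16. The closest of the 12 was Car3 (94.9 against 100.5 to 568 CPM). For these 12 genes the level was lower on both sides of the zone in HNKO mouse 1. The share of all genes that lie so was not counted here either.

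Pericentral identity genes were near or below Central 1. Glul had 1004 CPM against 1040, 1608, 1236 and 1634 CPM, and Lgr5 477 CPM against 639, 860, 543 and 534 CPM, so that by CPM the cluster was lowest of the 5 groups for both, by 1.37- and 1.35-fold of the mean. This order depended on the scaling. The factor of the cluster was 0.824 with TMM and 0.877 with DESeq2, below those of Central 1 (1.01 to 1.05 and 0.945 to 1.03). With either set of factors the cluster was no longer lowest for Glul or Lgr5. Of 26 pericentral genes measured, 2 were over 2-fold higher (Scara5 and Slc22a3) and 6 lower (among them Cyp2c29, Ces1c, Cyp2c54, Cyp2a5 and Cyp2c37), and the median log2 ratio was -0.53 (-0.21 with TMM factors for the same genes, with 4 higher and 5 lower). Cyp2e1 had 1294 CPM against 2503, 1991, 2664 and 2511 CPM. Of 37 P450 and conjugation genes, 17 were over 2-fold lower, 12 of them below every mouse, and 1 was higher (Fmo5), with a median of -0.86 (-0.56 with TMM). Cyp2c29 showed how far the mice differ, with 982 CPM in the cluster, inside the range of 7028, 3259, 975 and 2652 CPM.

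Periportal genes were not lower than in Central 1. Of 13 measured, Ass1 was over 2-fold higher and none lower, with a median of 0.40 that turned negative without a filter on low genes (-0.22). Ass1 had 2173 CPM against 231, 458, 1121 and 499 CPM (3.76-fold). Cps1 had 10557 CPM against 3655, 4364, 10927 and 4442 CPM, which puts WT mouse 3 above the cluster. Slc25a15, the mitochondrial ornithine carrier, was 2.38-fold higher. The level in endothelial nuclei of HNKO mouse 1 was 652 CPM for Ass1 and 5745 CPM for Cps1, and the part of free RNA in these values was not tested.

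Among the other lists, Acmsd and Kynu, enzymes of tryptophan breakdown, were the only 2 of 10 genes of the NAD synthesis list past 2-fold. Acmsd had 89.4 CPM against 23.1, 18.8, 52.2 and 14.8 CPM, and Kynu 1949 CPM against 913, 534, 651 and 699 CPM. Both were at a like level in HNKO 1 (90.9 and 2587 CPM). In lipid and glucose metabolism, Elovl5, Lpin1, Ppargc1a, Pdk4 and Foxo1 were over 2-fold higher and above every mouse. Srebf1, Dgat2, Mlxipl and Sord were over 2-fold lower and below every mouse, although none of the 4 was past 2-fold with TMM factors. Ppargc1a and Pdk4 were the only 2 higher of 15 fatty acid oxidation genes measured. In that list 3 were over 2-fold lower, 10 of 15 were below the Central 1 mean, and the median was -0.70 (-0.38 with TMM). Mlxipl, the carbohydrate response factor, had 396 CPM against 786, 772, 582 and 1036 CPM, and Ppargc1a, a coactivator of gluconeogenic and mitochondrial genes, 1295 CPM against 293, 553, 648 and 267 CPM. Among growth signals, Ntrk2, Pdgfc and Egfr were higher and Socs2, Esr1 and Erbb3 lower, of 17 measured, with WT mouse 3 below the cluster for Socs2 (6.96 against 58.1 CPM). With TMM factors or DESeq2 size factors 3 were higher and 1 lower, and Esr1 and Erbb3 stayed within 2-fold. The apolipoproteins Apob and Apoe and the nuclear receptor Nr1i3 were lower by 2.07-, 2.18- and 2.28-fold, 3 of 16 identity genes, of which none was past 2-fold with TMM factors. No gene of the integrated stress response (5 measured) or p53 (4 measured) lists passed 2-fold, but with TMM factors 1 of 5 and 2 of 4 were over 2-fold higher, and with DESeq2 size factors 2 of the 4 p53 targets.

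Mitochondrially encoded transcripts, which reach a preparation of nuclei with adhering cytoplasm, summed to 985 CPM in Central HNKO 1, 1616 CPM in HNKO 1 and 1856, 2725, 1856 and 2113 CPM in Central 1 of WT mice 1 to 3 and HNKO mouse 2. In Central HNKO 2 of HNKO mouse 3 the sum was 1088 CPM, close to that of the cluster. Of 9 such genes measured, 8 were over 2-fold lower than in Central 1 (median -1.08), and 2 remained so with TMM factors (median -0.77). The median unspliced share was 78.0% in the cluster and 70.3% to 73.3% in Central 1, but 72.8% in Central HNKO 2, where the sum was low as well. The part of cytoplasm in these values was not tested.

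Whether zonation itself differed was asked within each mouse, so that each liver serves as its own scale. The zonal difference is the log2 ratio of pericentral to other hepatocyte nuclei after 5 CPM were added to both. For 25 pericentral genes the median was 1.67 in HNKO mouse 1 (Central HNKO 1 over HNKO 1), 1.34, 1.35 and 1.72 in the WT mice, 1.93 in HNKO mouse 2 and 1.55 in HNKO mouse 3. The pericentral median of HNKO mouse 1 was thus within the range of the other livers. The list shares genes with the cluster markers, and the nuclei had been divided by such genes. This median therefore describes the clusters and is no test of zonation. Glul had a difference of 5.29 against 4.26 to 5.07 in the Central 1 mice, and Slc22a3 6.86 against 4.34 to 6.34. Aldh1a1, retinal dehydrogenase, was the clearest in the other direction, with 0.72 against 1.35 to 1.93.

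The periportal side had a smaller median difference. The median over 22 periportal genes was -1.23 in HNKO mouse 1, against -1.88, -1.73 and -1.70 in the WT mice, -1.90 in HNKO mouse 2 and -1.39 in HNKO mouse 3. Of the 22 genes, 9 were above the range of the Central 1 mice and 1, Etnppl, below it, where 17.6% and 19.7% of all 3119 genes lay above and below. Ass1 had -0.24 against -2.24 to -1.20, Asl -1.16 against -1.97 to -1.63, Fbp1 0.43 against -1.25 to -0.37 and G6pc 0.76 against -0.64 to -0.01. Sds, Hal and Gldc were inside the range. Cps1 (-0.86 against -1.89 to -0.73) and Arg1 (-2.52 against -3.67 to -2.02) were also inside it, so that members of the urea cycle lay on both sides of its limit.

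**Figure D4:**
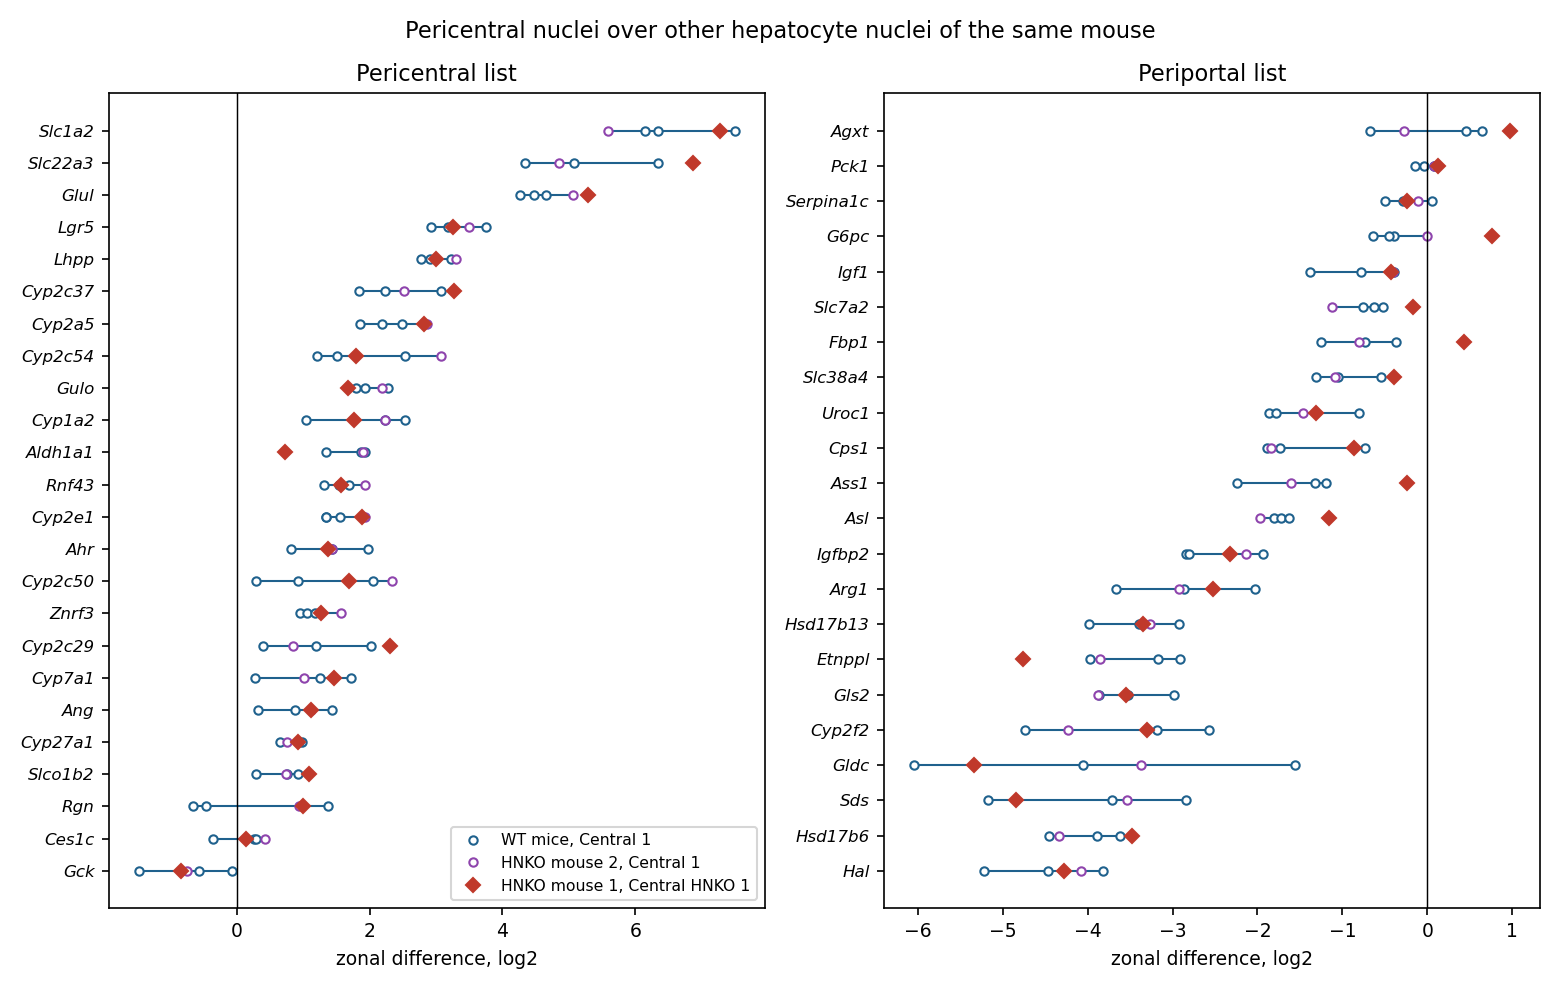
Zonal difference (log2 of pericentral over other hepatocyte nuclei of the same mouse) for 24 pericentral and 22 periportal genes, with 1 point per mouse and a line for the range of the 4 mice with Central 1 nuclei. HNKO mouse 1 (diamonds) lies to the right of the lines for Ass1, Asl, Fbp1 and G6pc and inside them for Sds, Hal and Gldc.

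Genes of fatty acid synthesis and storage showed a like shift. The median zonal difference over 21 genes was -0.18 in HNKO mouse 1 against -1.06, -0.72 and -0.80 in the WT mice, -0.93 in HNKO mouse 2 and -0.50 in HNKO mouse 3, and 12 of 21 genes were above the Central 1 mice. For 22 glucose and glycogen genes it was 0.12 against -0.51, -0.43, -0.09 and -0.36, with 10 above. Elovl5 was higher on the pericentral side in HNKO mouse 1 (0.94) and lower in the 4 others (-1.60 to -0.07). With 1 mouse, these differences have no replicate, and the range of 4 mice is the scale against which they are set.

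The lists were then summed in single nuclei. The pericentral list made up a median of 1.75% of the UMIs of a Central HNKO 1 nucleus (quartiles 1.35% and 2.26%), 0.459% in HNKO 1 and 2.08% to 2.77% in Central 1. All 93 nuclei had at least 0.669%, and the middle of the cluster lay below that of each Central 1 mouse. The periportal list made up 2.39% in Central HNKO 1 (1.58% and 3.64%), 3.95% in HNKO 1 and 1.22% to 1.72% in Central 1. The cluster therefore lay between HNKO 1 and Central 1 on both lists, with a wide spread on the periportal one. The list holds Cps1 and Ass1, whose levels are given above.

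**Figure D5:**
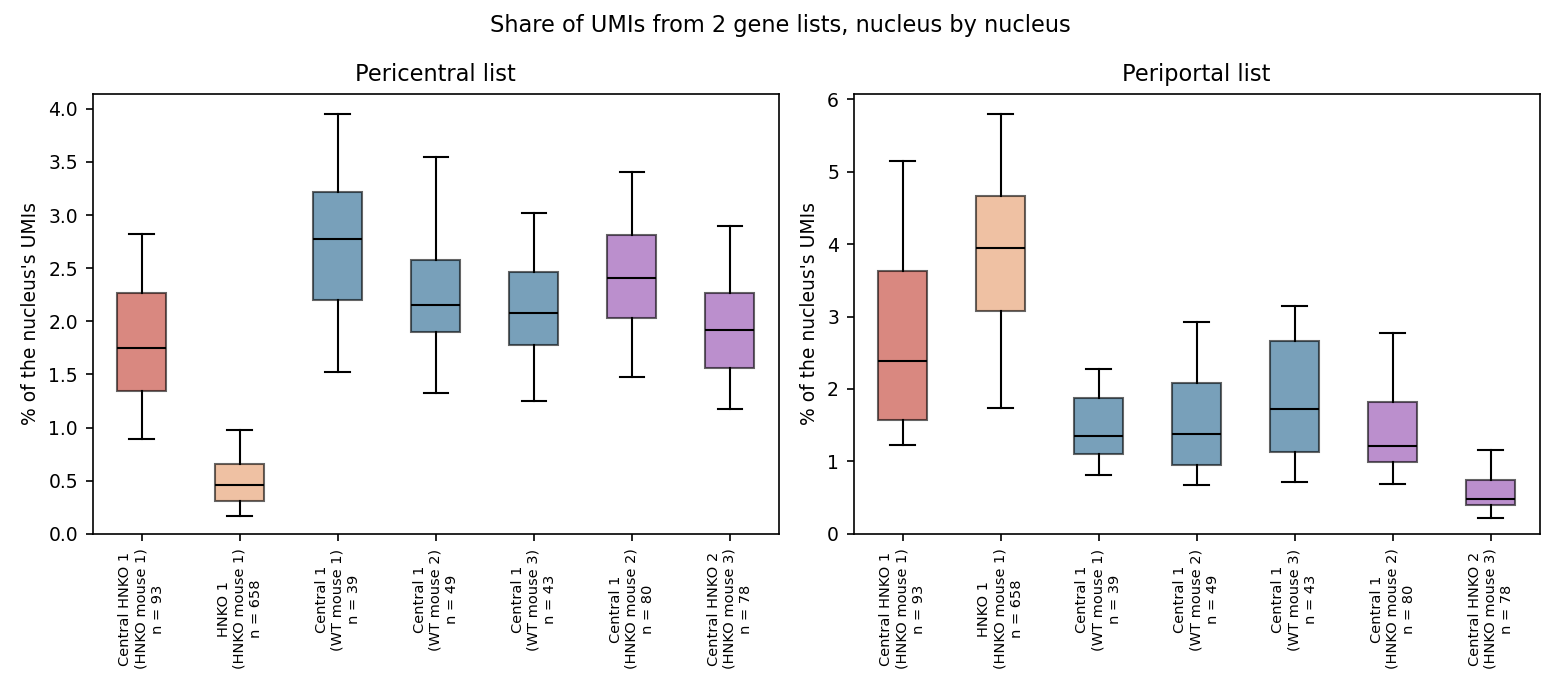
Share of each nucleus's UMIs that came from the pericentral (left) and periportal (right) lists, by cluster and mouse, with boxes for median and quartiles and whiskers to the outermost nuclei within the 5th to 95th percentiles. The box of Central HNKO 1 has a median of 1.75% and 2.39%, between those of HNKO 1 and Central 1 in both panels. Nuclei of a mouse are not replicates.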

How the data were processed

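Nuclei from 6 livers were run as 2 RNA pools, each with its hashtag pool. Reads were processed by the authors with Cell Ranger version 5.0.1 and Alevin (GRCm38, GENCODE M25). The deposited estimated counts give UMIs per gene and nucleus, spliced plus unspliced (10.1% of nonzero values are more than 0.001 from a whole number). A second deposited table gives a score, SCTransform-corrected UMIs at a common depth (3348 to 5760 per nucleus, against 1349 to 44204 UMIs), and another the deposited hashtag counts. Nuclei with no clear hashtag, or with those of several mice, were absent from the table. The authors clustered the nuclei at a resolution of 1.2 into 21 clusters, whose names were used as given. Doublets of 1 mouse were not removed and no caller was run. No barcode occurred more than once.

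The estimated counts were summed per cluster and mouse, for groups of at least 10 nuclei, and scaled to CPM. Genes with a mean of at least 50 CPM over both sides entered a comparison, and over 2-fold was called higher or lower. A sum of 0 was set to 3 counts in ratios. Intervals of 95% (exact, conditional binomial or binomial) cover counting error only. Each Central 1 mouse was weighted equally. On simulated counts for the comparison with HNKO 1, 100% of genes changed 4-fold in either direction passed 2-fold and 95.3% of intervals held the true value (2906 genes). No test between clusters was made, because the authors had built them from these genes. The members and gene lists were chosen with earlier results of these data known. Named are the 4 markers, Nampt, the 12 genes furthest in each direction of each comparison (leaving out unnamed clones), list members past 2-fold and up to 4 further members per list. Some items that the rule gives are not reported here. Agreement of both RNA pools, part of that rule, could not be required, since the nuclei are not assigned to pools in the table used. 7 Central 1 nuclei of HNKO mouse 1 and 1 Central HNKO 1 nucleus of HNKO mouse 2 were left out of sums. Gene positions are from GENCODE M21 (GRCm38), for 192 of 203 named genes. Promoter windows from RefSeq covered 2 of the 4 markers. Alternatives were other scalings (edgeR version 4.0.16, DESeq2 version 1.42.0), filters, SCTransform means and left-out mice or nuclei. Python version 3.11.15, numpy version 2.4.6, pandas version 2.3.3, scipy version 1.17.1, matplotlib version 3.10.9 and R version 4.3.3 were used.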

Additional observations from a re-analysis of the deposited data

Results flagged for a closer look

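Among 73 named genes with a mean of at least 50 CPM in Central 1, 9 had a mouse that stood apart from the other 3, by a gap to the next mouse of 0.864 to 0.982 of the whole range. Chance gives such a gap in about 1 of 20 groups. WT mouse 3 was highest for Cps1 (10927 CPM against 3655 to 4442 CPM), Il1r1 (1755 against 471 to 624 CPM), Il6ra (456 against 135 to 173 CPM) and Fmo5 (4635 against 1036 to 1100 CPM). WT mouse 1 was highest for Sult2a8 (1891 against 214 to 336 CPM) and Erbb3 (208 against 86.5 to 94.02 CPM) and lowest for Nr1i3 (189 against 333 to 349 CPM). WT mouse 2 was highest for Agxt (433 against 46.2 to 98.9 CPM). HNKO mouse 2 was highest for Gna14 (455 against 250 to 275 CPM).

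Of 87 named genes with a zonal difference, 9 had one sign in HNKO mouse 1 and the other in all 4 mice with Central 1 nuclei. The value (log2) was 0.94 against -1.60 to -0.07 for Elovl5, 0.76 against -0.64 to -0.01 for G6pc, 0.43 against -1.25 to -0.37 for Fbp1, 0.33 against -0.92 to -0.23 for Egfr and 0.28 against -0.77 to -0.22 for Ppargc1a. It was 0.13 against -1.28 to -0.17 for Lgr4 and 0.10 against -1.38 to -0.57 for Lpin1. For C8a it was -1.03 against 0.16 to 0.42, and for Apob -0.12 against 0.16 to 0.50. These differences were not tested, since 1 mouse stands against 4.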

How the results depend on the processing

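The ratios of 53 named genes kept their direction under each alternative run for them. With TMM factors, Central HNKO 1 against Central 1 gave 245 genes higher and 53 lower beyond every mouse and list medians of -0.19 (pericentral) and 0.71 (periportal); with DESeq2 size factors, 169 and 81 genes and a pericentral median of -0.33, and against HNKO 1 medians of 2.04 and -1.12. Without a filter and with 5 CPM added, the counts were 227 and 490 against HNKO 1 and 300 and 498 against Central 1, the medians against HNKO 1 were 1.51 and -1.02, and the periportal median against Central 1 reversed to -0.22, as genes of low level entered. From 200 CPM upward they were 50 and 25, and 49 and 35, with periportal medians of -0.40 and 0.59. SCTransform means gave 169 genes above Central 1 and a pericentral median of -0.35. Equal weight per nucleus, chosen after seeing the data, gave medians of 1.61 and -1.12 against HNKO 1. Adding 20 CPM gave a periportal zonal median of -1.12. After thinning, a UMI was left in 34.4% (Slc22a3), 10.8% (Scara5) and 57.0% (Lhpp) of nuclei. Leaving out 1 Central 1 mouse at a time gave 107 to 135 genes higher and 114 to 170 lower, and medians of -0.54 to -0.46 (pericentral) and 0.42 to 0.64 (periportal). Adding the 7 Central 1 nuclei of HNKO mouse 1, also chosen after seeing the data, or leaving out the deepest 10% of nuclei kept all counts within 1.5 times. Values within each RNA pool were not run, since the table used gives no pool per nucleus. No paired analysis was possible because the replicate numbers name pools, not mice, and no result comes from a test. The cause of these shifts was not tested. With 894793 UMIs in the cluster, 3 counts are a floor of about 3.35 CPM, and genes below 50 CPM were not compared.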

Other observations

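Both gene groups here were looked at after their values were seen. All 34 Mup genes and pseudogenes in the table summed to 337.5 CPM in Central HNKO 1 and 419 CPM in HNKO 1, against 3258, 4779 and 3785 CPM in Central 1 of the WT mice, 3594 CPM in HNKO mouse 2 and 1329 CPM in Central HNKO 2 of HNKO mouse 3. A sum over the family does not depend on how UMIs were divided among its copies. The other hepatocytes had 2134, 3515 and 1977 CPM in the WT mice, 3171 CPM in HNKO mouse 2 and 1114 CPM in HNKO mouse 3. Cyp3a41a, Cyp3a41b and Cyp3a44 together had 79.3 CPM in the cluster, 136 CPM in HNKO 1, 158, 1746 and 474 CPM in Central 1 of the WT mice and 1416 CPM in HNKO mouse 2, so that WT mouse 1 lay nearest the cluster.

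Of 21 acute phase and complement genes, 2 were over 2-fold higher in the cluster than in HNKO 1 and 2 lower, with a median of -0.12 beside -0.11 over all genes. Il1r1, the interleukin-1 receptor, had 2452 CPM in Central HNKO 1 and 940 CPM in HNKO 1 (ratio 2.61, 2.48 to 2.74), and 624, 471, 1755 and 598 CPM in Central 1 of WT mice 1 to 3 and HNKO mouse 2. Lifr, the receptor of leukemia inhibitory factor, had 554 and 190 CPM, against 1113, 1074, 547 and 1508 CPM in Central 1. Il6ra, the interleukin-6 receptor, stayed within 2-fold (349 against 417 CPM). The complement genes C9 and C8a were over 2-fold lower in the cluster than in HNKO 1 (63.7 against 337 CPM and 148 against 306 CPM).

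The 7 Central 1 nuclei of HNKO mouse 1, with 21437 UMIs in all, had 466 CPM of Slc22a3, 4292 CPM of Slc1a2, 1120 CPM of Lhpp and no Scara5 UMI. The 1 Central HNKO 1 nucleus of HNKO mouse 2 held 3068 UMIs, of which 7 were Slc1a2, 4 Lhpp and none Slc22a3 or Scara5.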
